A study of Mus musculus with 4 samples.

Results

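The subject of these measurements is the DNA replication genes in RAW264.7, a line of mouse macrophage-like cells that divides in culture. The set holds 39 genes named by symbol, chosen for their known function, out of 22911 genes that the array names. They fall into 9 roles, from origin recognition to the supply of deoxynucleotides. All 39 were found on the array through RefSeq transcript accessions, by 55 probes in all, and 15 of them had more than 1 probe.

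RNA was measured on 4 whole-genome mouse arrays of 1 colour, with 1 array per group. The groups were cells with the Ruvbl2 siRNA pool given LPS, cells with non-targeting control siRNA given LPS, cells with the Ruvbl2 siRNA pool given DMSO, and cells with control siRNA given DMSO. Every group had been transfected and was analysed 2 days later. LPS is lipopolysaccharide, the bacterial cell wall component that activates macrophages through Toll-like receptor 4, and DMSO is the solvent control. The sample titles write the target as siRvbl2, and the series text names RUVBL2. The labels state no amount of LPS and no exposure time. The series asks how RUVBL2, an AAA+ ATPase of chromatin remodelling and chaperone complexes, takes part in the response to LPS. A bulk array cannot tell fewer dividing cells from less RNA per cell.

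Before S phase, the origin recognition complex (ORC) with CDC6 and CDT1 loads the MCM helicase, a ring of MCM2 to MCM7, onto replication origins. CDC45, the GINS complex and MCM10 then turn that ring into a moving helicase. Polymerase alpha with primase starts each strand, polymerases epsilon and delta extend it on the PCNA clamp, RPA covers the bared single strand, and FEN1 and LIG1 finish the lagging strand. Many of these genes are known targets of E2F transcription factors, whose activity rises as cells pass from G1 into S phase. Growth of macrophages is known to slow on activation in many settings.

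Of the 39 genes, 32 had promoter windows in the RefSeq table (build GRCm38.p6), 38 windows in all, each of 250 bases before the annotated start site and 50 after it. The letters TTCCCGC were searched on both strands as a form of the E2F binding sequence, along with TTCGCGC as a related form of it, then with TTGCCGC as a further form, and lastly with the string TTGGCGC of the same family. At least 1 of these strings stood in 23 of the 38 replication gene windows (60.5%), against 9.57% of all 32851 windows in the table. Among 22 windows of mitosis genes, 2 held one (9.09%). The letters CCAAT, the core bound by NF-Y, were in 63.2% of the replication gene windows, in 72.7% of the mitosis gene windows and in 37.4% of all windows. The strings TTTGAA and TTCGAA, forms of the cell cycle homology element (CHR) of mitosis genes, were in 18.4% of the replication gene windows, in 68.2% of the mitosis gene windows and in 19.2% of all windows. In 3 of the replication gene windows an E2F-type match shared bases with a CCAAT match. A match is a run of letters and not a measured binding site.

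The windows of 5 genes named below are printed 5′ to 3′ on the strand of the gene, with every E2F-type match in capitals. Each of the 5 held a match, as 21 of the 32 genes did. The windows of Orc2, Pola2 and Cdc45, whose values are also given below, held 0. Whether matches go with the size of a difference was not tested. Pola1 lies on chrX:93632106-93632405 (minus strand) and held 4 matches on both sides of the start site. Mcm6 lies on chr1:128359656-128359955 (minus strand) and held 5 matches in 3 runs of capitals, some of them overlapping. Cdt1 lies on chr8:122567765-122568064 (plus strand) with 2 matches, both after the start site. Cdc6 lies on chr11:98907901-98908200 (plus strand) and Rrm2 on chr12:24708004-24708303 (plus strand), with 1 match each.
Pola1: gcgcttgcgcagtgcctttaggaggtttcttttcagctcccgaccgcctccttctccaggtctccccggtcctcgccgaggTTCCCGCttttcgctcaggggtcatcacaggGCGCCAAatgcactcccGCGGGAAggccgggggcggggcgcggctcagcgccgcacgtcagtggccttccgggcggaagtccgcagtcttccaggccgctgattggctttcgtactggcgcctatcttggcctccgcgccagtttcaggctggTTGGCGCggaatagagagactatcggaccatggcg
Mcm6: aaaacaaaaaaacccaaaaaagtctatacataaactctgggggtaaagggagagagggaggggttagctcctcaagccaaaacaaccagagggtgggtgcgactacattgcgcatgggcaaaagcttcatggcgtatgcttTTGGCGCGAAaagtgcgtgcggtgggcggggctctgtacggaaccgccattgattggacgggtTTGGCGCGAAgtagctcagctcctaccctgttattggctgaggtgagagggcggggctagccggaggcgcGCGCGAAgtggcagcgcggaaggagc
Cdt1: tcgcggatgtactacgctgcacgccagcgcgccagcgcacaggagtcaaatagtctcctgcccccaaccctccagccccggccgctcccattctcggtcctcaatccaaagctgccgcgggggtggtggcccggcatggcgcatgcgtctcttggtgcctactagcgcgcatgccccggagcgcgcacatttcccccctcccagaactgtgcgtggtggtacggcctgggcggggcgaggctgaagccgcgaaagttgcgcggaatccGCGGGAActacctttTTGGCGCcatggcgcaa
Cdc6: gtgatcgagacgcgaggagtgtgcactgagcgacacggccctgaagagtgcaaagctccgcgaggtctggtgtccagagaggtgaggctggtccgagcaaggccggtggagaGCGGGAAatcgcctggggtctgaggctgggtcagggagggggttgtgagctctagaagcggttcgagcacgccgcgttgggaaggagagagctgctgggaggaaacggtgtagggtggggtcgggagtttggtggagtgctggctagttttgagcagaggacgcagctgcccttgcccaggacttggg
Rrm2: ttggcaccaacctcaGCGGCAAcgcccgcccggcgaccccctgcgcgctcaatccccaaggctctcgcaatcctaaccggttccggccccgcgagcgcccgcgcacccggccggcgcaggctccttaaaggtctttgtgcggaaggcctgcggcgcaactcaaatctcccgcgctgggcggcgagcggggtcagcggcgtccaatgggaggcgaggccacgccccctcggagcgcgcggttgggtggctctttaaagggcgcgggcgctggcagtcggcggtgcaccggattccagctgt

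Levels below are log2 processed signals minus the array's own 75th percentile, so that 0 is the 75th percentile of all probes on that array. Each gene is represented by its brightest probe. Every one of the 39 replication genes passed the scanner's background test on each of the 4 arrays, so none was left out for low signal, and 37 of them had a level above 0 on every array. With no replicate array there is no test and no p-value. A difference was called at 2-fold, and 1.5-fold (0.58 on the log2 scale) served as a smaller mark. The error of a spot was taken from 268 bright probes printed several times, for which a log2 difference had a technical SD of 0.064, and from 6 dimmer ones between levels of -2 and 3, with an SD of 0.129. These SDs come from repeat spots within an array and do not contain the spread between arrays or between cultures.

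The siRNA target was lower by less than 1.5-fold. The brighter Ruvbl2 probe had a level of 4.51 on the Ruvbl2 siRNA array and 4.92 on the control siRNA array in LPS (-0.40), and 4.67 and 5.01 in DMSO (-0.34). The dimmer probe differed by -0.12 in LPS and by -0.55 in DMSO, with a technical SD of 0.27. Ruvbl1, the partner ATPase, differed by 0.14 in LPS and 0.00 in DMSO. The 4 arrays had 54.1% to 55.0% of RNA spots well above background and no saturated spot. Both Ruvbl2 siRNA arrays lay in slide row 2 and both control siRNA arrays in row 1, so siRNA and slide row cannot be told apart. All 8 macrophage markers were measured on every array. Of 17 markers of fibroblasts, epithelium, lymphocytes and endothelium, 3 were (Col1a2, Cd3e and Cd3d). No source says that the arrays came from separate cultures or days.

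By their brightest probes and on the 75th percentile scale, the replication genes stayed within 1.5-fold in the 4 pairs of arrays compared. In each of the 4 comparisons 0 of 39 were called at 2-fold and 0 at 1.5-fold. Over all genes compared, 9.10% were past 1.5-fold between the siRNAs in LPS (2.52% past 2-fold), 6.22% between the siRNAs in DMSO (1.55%), 16.9% for LPS with Ruvbl2 siRNA (6.21%) and 20.0% for LPS with control siRNA (7.95%). Among the 8658 genes with a mean level of 0 or more, which are nearer in brightness to the replication genes, the shares past 1.5-fold were 3.95%, 1.99%, 11.0% and 14.7% in the same order. For LPS, 0 of 39 lies below those shares, while between the siRNAs in DMSO the share among bright genes is itself small. Scaled on the spike-ins, 7 of 39 were past 1.5-fold for LPS with Ruvbl2 siRNA, 2 between the siRNAs in DMSO, 1 for LPS with control siRNA and 0 between the siRNAs in LPS. That scaling rests on 7 spike-in probes and adds the same amount to every gene of a comparison. The share of all genes past 1.5-fold on it was not computed, so these counts are not read as a trait of replication genes. Among the other probes, those of Pola1 (-0.65) and Mcm6 (-0.64) passed it between the siRNAs in DMSO, and that of Orc1 (0.61) for LPS with Ruvbl2 siRNA.

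The gap between the highest and the lowest of the 4 arrays gives the same picture gene by gene. Its median was 0.26 over the 39 replication genes, 0.43 over 25 mitosis genes and 0.38 over genes with a mean level of 0 or more. It ran from 0.04 for Mcm2 to 0.59 for Rrm2, which was the 1 member past 0.58. Of the 8658 genes with a mean level of 0 or more, 6494 stayed within that gap. Of the 39 replication genes, 29 had a level of 3 or more on every array. The technical SD is 0.064 there and 0.129 between levels of -2 and 3. A set of genes matched for brightness was not compared. Mcm2, a subunit of the helicase ring, had a level of 3.52 with Ruvbl2 siRNA and 3.49 with control siRNA in LPS, and of 3.49 and 3.53 in DMSO, a spread below the technical SD.

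**Figure D1:**
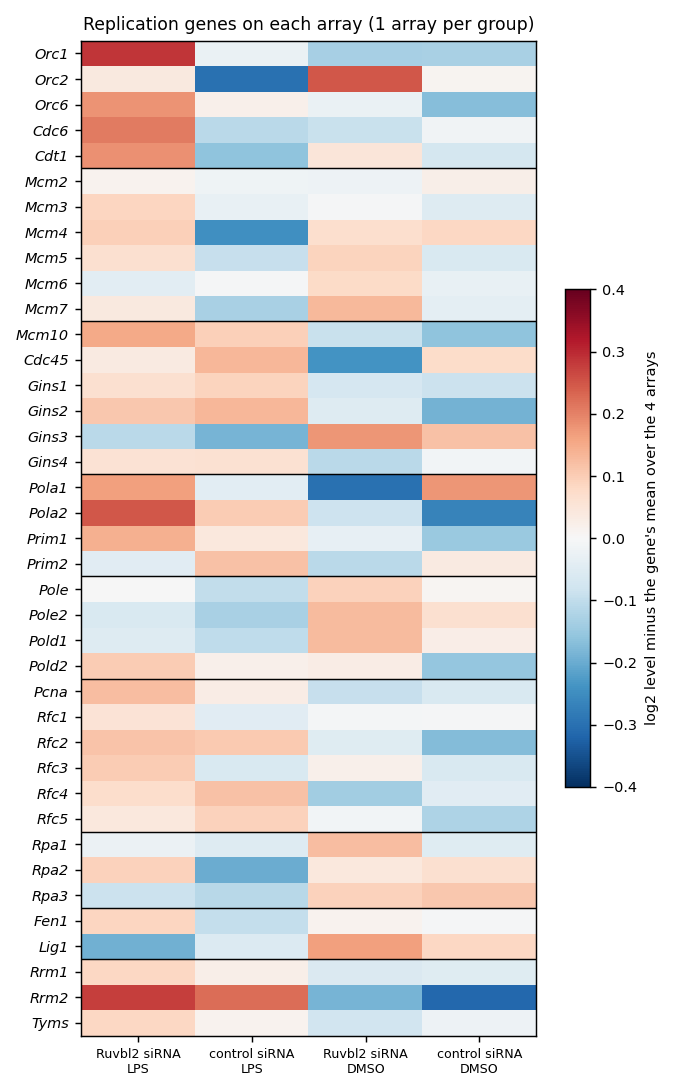
Level of each of the 39 replication genes on each array, as log2 level minus the gene's own mean over the 4 arrays (colour scale from -0.4 to 0.4), with 1 array per group and black lines between the 9 roles. Rrm2 is high on both LPS arrays, and Pola1 is low on the Ruvbl2 siRNA DMSO array.

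Between the siRNAs in LPS, more replication genes stood slightly above 0 than below it. Of the 39, 30 were higher with Ruvbl2 siRNA (76.9%, against 50.8% of all genes measured), with a median of 0.08 against 0.00 for all genes. The 6 highest were Cdt1, Mcm4, Orc2, Cdc6, Orc1 and Rpa2, of which 4 belong to licensing. Cdt1, the loader that brings the MCM ring to the origin, had a level of 5.77 with Ruvbl2 siRNA and 5.43 with control siRNA in LPS (0.34), a difference of over 5 technical SDs of a spot. In DMSO the same gene stood at 5.63 and 5.52 (0.12). Cdt1 was thus highest on the Ruvbl2 siRNA LPS array and lowest on the control siRNA LPS array.

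Cdc6, the ATPase that works with CDT1, had a level of 3.11 with Ruvbl2 siRNA and 2.80 with control siRNA in LPS (0.32), against 2.82 and 2.89 in DMSO (-0.08). Its other probe gave 0.12 in LPS and -0.23 in DMSO. Both Cdc6 probes were highest on the Ruvbl2 siRNA LPS array. Orc1, the ORC subunit whose amount is cell cycle regulated in mammals, stood at 0.93 and 0.62 in LPS (0.31), but its other probe gave -0.16, so its direction is not settled. Orc2, a subunit of the ORC core, stood at 2.26 with Ruvbl2 siRNA and 1.92 with control siRNA in LPS (0.34), and its other probe gave 0.34 as well. In DMSO the Orc2 probes gave 0.24 and -0.29. Orc6, the smallest ORC subunit, differed by 0.16 in LPS and 0.14 in DMSO. All 5 licensing genes were above 0 in LPS by their brightest probe, with a median of 0.32, and 3 of 5 in DMSO, with a median of 0.12.

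In the helicase ring, Mcm4 had the largest siRNA difference in LPS. Its brightest probe had a level of 5.64 with Ruvbl2 siRNA and 5.30 with control siRNA in LPS (0.34), against 5.61 and 5.63 in DMSO (-0.02). The control siRNA LPS array was the low one, and the other 3 lay within 0.03 of each other. The remaining subunits differed in LPS by 0.03 for Mcm2, 0.12 for Mcm3, 0.15 for Mcm5, -0.04 for Mcm6 and 0.17 for Mcm7. Mcm5 and Mcm7 differed by the same amounts in DMSO, 0.15 and 0.17. Other probes of the ring read lower in DMSO, at -0.15 for Mcm7, -0.64 for Mcm6 and -0.24 for the dimmest of 3 for Mcm3, so the direction of these genes there is not settled. The comparisons that use the control siRNA LPS array share that low Mcm4 value.

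Helicase activators lay around 0, with a median of -0.01 in LPS and 0.04 in DMSO. Cdc45, which joins the ring to form the moving helicase, had levels of 0.57 with Ruvbl2 siRNA and 0.67 with control siRNA in LPS (-0.10), and 0.30 and 0.61 in DMSO (-0.31). Its other probe gave -0.12 and -0.29, so both Cdc45 probes were lowest on the Ruvbl2 siRNA DMSO array. The GINS subunits differed in LPS by -0.03 (Gins1), -0.02 (Gins2), 0.08 (Gins3) and 0.00 (Gins4), and Mcm10, an activator of the assembled helicase, by 0.06.

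**Figure D2:**
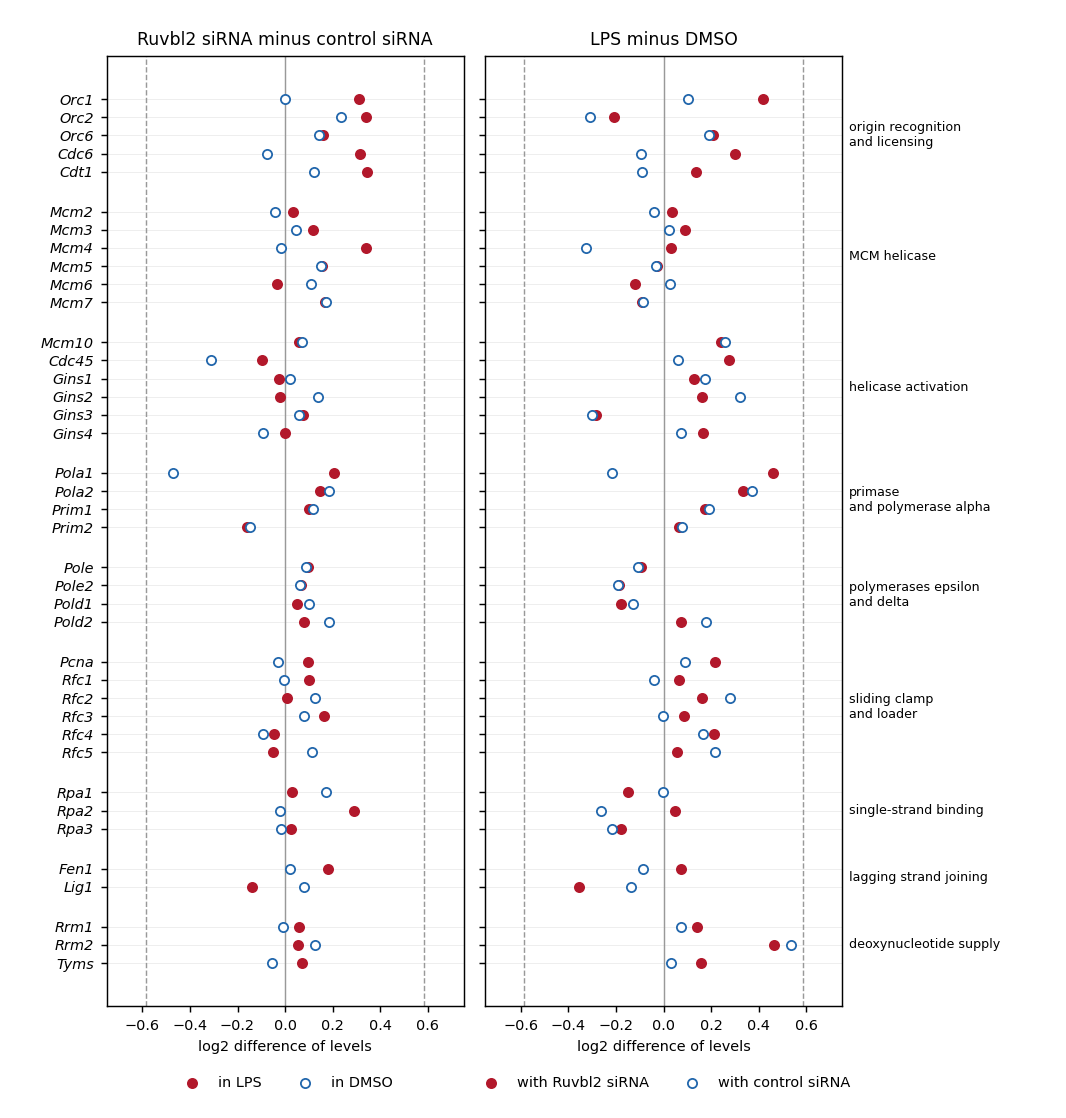
Log2 differences of the 39 replication genes by role: Ruvbl2 siRNA minus control siRNA (left, filled points in LPS and open points in DMSO) and LPS minus DMSO (right, filled points with Ruvbl2 siRNA and open points with control siRNA). Dashed lines mark 1.5-fold, and every point lies inside them.

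Pola1, the catalytic subunit of polymerase alpha, had the lowest value of any member between the siRNAs in DMSO and stood on opposite sides of 0 in the 2 treatments. Its brighter probe had a level of 2.44 with Ruvbl2 siRNA and 2.24 with control siRNA in LPS (0.20), and of 1.98 and 2.46 in DMSO (-0.47). The other probe stood at 1.21 and 0.82 in LPS (0.39), and at 0.63 and 1.28 in DMSO (-0.65, past 1.5-fold). By both probes the Ruvbl2 siRNA DMSO array was the lowest of the 4, and the difference was past the technical SD of 0.129 in each treatment. The genes of its partners lay on 1 side of 0 in both treatments. Pola2, the regulatory subunit of polymerase alpha, differed by 0.15 in LPS and 0.18 in DMSO. Prim1, the catalytic primase subunit, gave 0.10 and 0.12, and Prim2, the large primase subunit, -0.16 and -0.15.

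Elongation genes differed by little with the siRNA. Pole and Pole2 of the leading strand polymerase differed by 0.10 and 0.07 in LPS, and Pold1 and Pold2 of polymerase delta by 0.05 and 0.08. All 4 were above 0 in both treatments, up to 0.19 for Pold2 in DMSO. Pcna, the sliding clamp, had levels of 6.93 with Ruvbl2 siRNA and 6.83 with control siRNA in LPS, and of 6.72 and 6.74 in DMSO. The RFC clamp loader genes ran from -0.05 (Rfc5) to 0.17 (Rfc3) in LPS and from -0.09 (Rfc4) to 0.12 (Rfc2) in DMSO. Rpa2, the middle subunit of RPA, stood at 2.26 and 1.96 in LPS (0.29) and at 2.21 and 2.23 in DMSO (-0.02), with the control siRNA LPS array low as for Mcm4. Rpa1 and Rpa3 each differed by 0.03 in LPS, and Rpa1 by 0.17 in DMSO. The flap nuclease gene Fen1 differed by 0.18 in LPS and 0.02 in DMSO, and the ligase gene Lig1 by -0.14 and 0.08. The genes of deoxynucleotide supply, Rrm1, Rrm2 and Tyms, lay between 0.05 and 0.07 in LPS and between -0.06 and 0.13 in DMSO.

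In DMSO, 24 of 39 replication genes were higher with Ruvbl2 siRNA (61.5%, against 58.4% of all genes), with a median of 0.06 against 0.04. The scaling bears on that sign. Spike-in probes, which report RNA added in a fixed amount, had a median level of 3.95 with Ruvbl2 siRNA and 3.64 with control siRNA in DMSO. Scaled on them, the median of all genes in DMSO was -0.26 and that of the replication genes -0.24, with 0 of 39 above 0. In LPS the spike-in scaling left 30 of 39 above 0. On the 75th percentile scale, 19 of the 39 genes were above 0 and 4 below 0 in both treatments. Taken singly, 24 were above 0 in DMSO and 30 in LPS. The same count over all genes was not made, so the 19 and 4 are not read as agreement between the 2 pairs of arrays. Across the 39 genes the siRNA differences in the 2 treatments correlated with r = 0.12 (Pearson) and rho = 0.14 (Spearman), against 0.42 and 0.38 over genes with a mean level of 0 or more. Genes are not independent replicates, and these coefficients describe the arrays.

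The choice of probe moved the siRNA values in DMSO. Among the 15 replication genes with several probes, the brightest probe was below 0 for 7 in DMSO, with a median of 0.02. Of their 16 other probes, 13 were below 0, with a median of -0.12. Mcm6 had the widest gap. Its brightest probe stood at 7.33 with Ruvbl2 siRNA and 7.22 with control siRNA in DMSO (0.11), while its other probe stood at 0.64 and 1.28 (-0.64, past 1.5-fold). Orc1 gave -0.45 by its other probe in DMSO. Over the 4801 genes with several probes measured on all arrays, the medians were 0.05 for brightest probes and -0.03 for the other 6136 in that comparison. In LPS the other probes of the replication genes had a median of 0.04 and the brightest 0.07. The part of this probe difference in the values of Pola1 and Cdc45 was not tested.

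**Figure D3:**
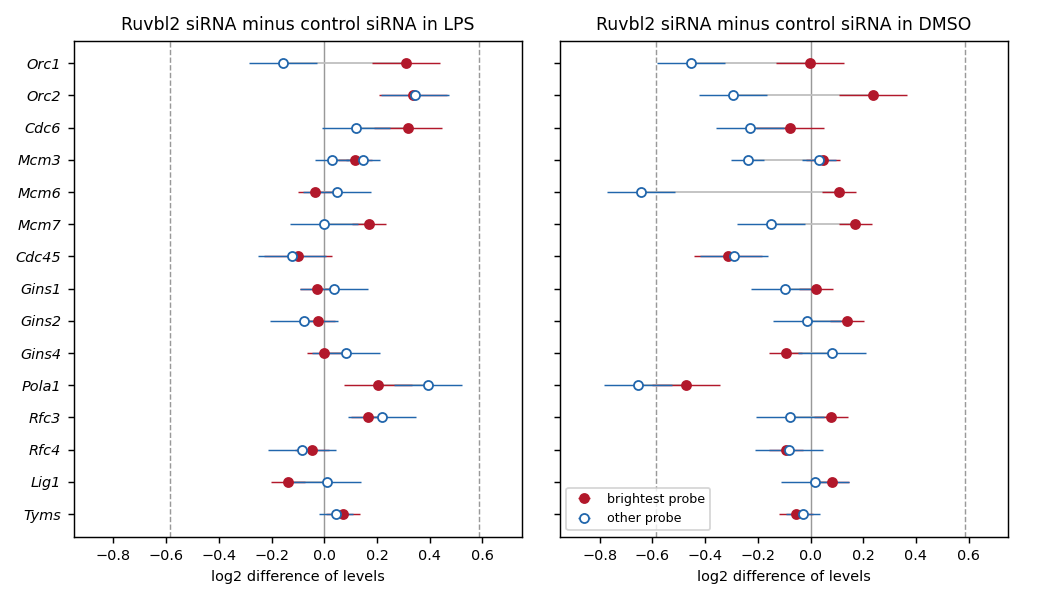
Ruvbl2 siRNA minus control siRNA (log2 difference) for the 15 replication genes with several probes, in LPS (left) and DMSO (right). Filled points are the brightest probe and open points the others, with bars of 1 technical SD and dashed lines at 1.5-fold. In DMSO the other probes of Mcm6 and Pola1 lie below the lower 1.5-fold line.

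For LPS against DMSO, the 2 siRNAs differed on the 75th percentile scale. More replication genes stood slightly above 0 than below it with Ruvbl2 siRNA, and about as many above as below with control siRNA. With Ruvbl2 siRNA 28 of 39 replication genes were above 0 (71.8%, against 46.2% of all genes), with a median of 0.08 against -0.03. With control siRNA 20 of 39 were above 0 (51.3%), with a median of 0.02 against 0.00. Scaled on the spike-ins, the medians were 0.45 for the replication genes and 0.33 for all genes with Ruvbl2 siRNA, and 0.09 and 0.07 with control siRNA. On that scale 39 of 39 replication genes were above 0 with Ruvbl2 siRNA and 25 with control siRNA, so directions with Ruvbl2 siRNA below are relative to the 75th percentile. The values with Ruvbl2 siRNA use the same DMSO array as the siRNA values in DMSO above.

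Rrm2, the regulated small subunit of ribonucleotide reductase, which makes deoxynucleotides, had the highest LPS difference of the 39 genes with control siRNA. With Ruvbl2 siRNA it stood level with Pola1 by brightest probes, both at 0.46. Other probes of Orc1 (0.61), Pola1 (0.58) and Cdc6 (0.50) were higher there. The level of Rrm2 was 6.22 in LPS and 5.75 in DMSO with Ruvbl2 siRNA (0.46, 1.38-fold), and 6.16 and 5.63 with control siRNA (0.54, 1.45-fold). Both LPS arrays were above both DMSO arrays, by 0.41 or more, over 6 times the technical SD, which holds no spread between arrays. Of all genes measured, 89.5% had a lower LPS difference than Rrm2 with Ruvbl2 siRNA and 88.4% with control siRNA. Rrm1, the large subunit, stood at 5.42 and 5.27 with Ruvbl2 siRNA and at 5.36 and 5.28 with control siRNA. Tyms, thymidylate synthase, differed by 0.16 with Ruvbl2 siRNA and by 0.03 with control siRNA.

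Several other replication genes kept 1 direction with LPS in both pairs of arrays. Pola2 was higher by 0.33 with Ruvbl2 siRNA and by 0.37 with control siRNA, and Mcm10 by 0.24 and 0.26. Gins2 was higher by 0.16 and 0.32, and its other probe by 0.38 and 0.44. Gins3 was lower in both, with levels of 4.28 in LPS and 4.56 in DMSO with Ruvbl2 siRNA (-0.28) and of 4.20 and 4.50 with control siRNA (-0.30). The 4 GINS subunits, which form 1 complex, thus differed in direction: Gins1 (0.13 and 0.18), Gins2 and Gins4 (0.16 and 0.07) were above 0 by their brightest probes. The other Gins4 probe gave -0.02 with each siRNA, so its direction is not settled. Lig1 was lower by both probes, at -0.36 and -0.14 by the brightest and -0.33 and -0.32 by the other. Rpa3 (-0.18 and -0.22) and Pole2 (-0.19 and -0.19) were also below 0. Orc2 was lower by its brightest probe (-0.21 and -0.31), while its other probe gave 0.32 and -0.31. With control siRNA, Mcm4 (-0.33) and Rpa2 (-0.26) were also among the 5 lowest, and with Ruvbl2 siRNA Orc1 (0.42) and Cdc6 (0.30) were among the 5 highest. Among the clamp loader genes, Rfc2 (0.16 and 0.28) and Rfc4 (0.21 and 0.16) were above 0.

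On the 75th percentile scale, 29 of the 39 genes had 1 sign of the LPS difference with both siRNAs, 19 above 0 and 10 below. The same share over all genes was not computed, and on the spike-in scale all 39 were above 0 with Ruvbl2 siRNA. The 2 LPS differences share no array, and across the 39 genes they correlated with r = 0.60 (Pearson) and rho = 0.64 (Spearman), against 0.85 and 0.75 over genes with a mean level of 0 or more. These coefficients too are across genes of 1 pair of arrays each.

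**Figure D4:**
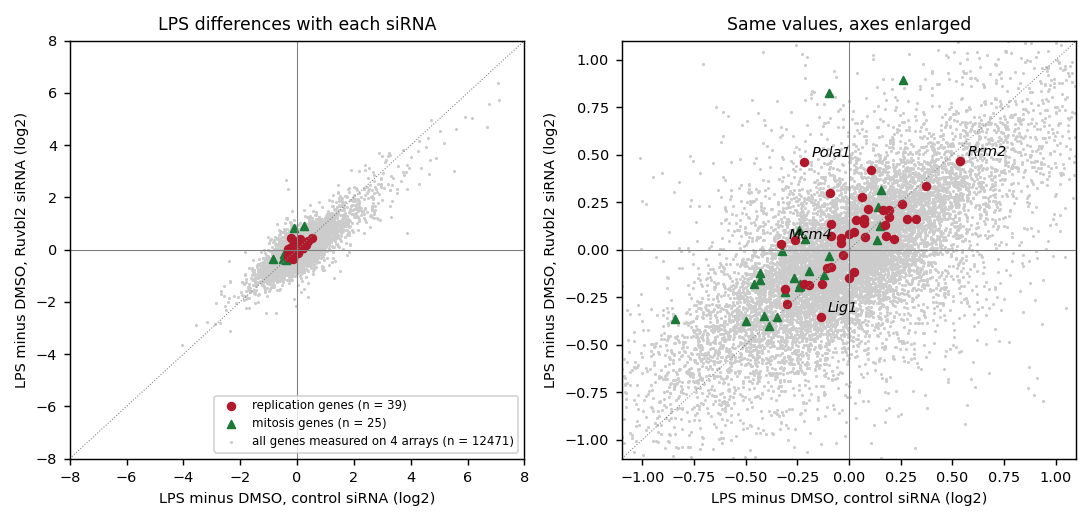
LPS minus DMSO with Ruvbl2 siRNA (vertical axis) against LPS minus DMSO with control siRNA (horizontal axis), both log2, for 39 replication genes, 25 mitosis genes and the 12471 genes measured on all 4 arrays, with the same points on enlarged axes at right. Replication genes lie close to the origin on the scale of the whole array, and mitosis genes lie mostly to the left of it.

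Where the LPS differences with the siRNAs are set against each other, Pola1 was the 1 replication gene past 1.5-fold by its brightest probe. LPS gave 0.46 with Ruvbl2 siRNA and -0.22 with control siRNA, a gap of 0.68, and the other probe gave 0.58 and -0.46, a gap of 1.05. The other probes of Mcm6 (0.69) and Orc2 (0.63) were past 1.5-fold as well. Over all genes 8.14% were past 1.5-fold in this gap and 1.69% past 2-fold, and 3.82% of genes with a mean level of 0 or more were past 1.5-fold. Next came Cdc6 (0.39), Mcm4 (0.36), Orc1 (0.31) and Rpa2 (0.31), and at the low end Lig1 (-0.22), Gins2 (-0.16), Rfc5 (-0.16), Rpa1 (-0.15) and Mcm6 (-0.14). The median over the 39 genes was 0.02, against -0.03 over all genes. Only the other probe of Pola1 passed 2-fold among all probes of the members.

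The rest of the pathway was read from lists of other genes. Of 31 other replication genes, 0 were past 2-fold in any comparison. The median of these genes between the siRNAs was 0.13 in LPS, with 23 of 31 above 0, and 0.01 in DMSO. Chtf8, a subunit of an alternative clamp loader, was the 1 gene of this list past 1.5-fold between the siRNAs in DMSO, with levels of 6.14 and 5.33 (0.81), against 5.49 and 5.49 in LPS. Pold4, the small subunit of polymerase delta, was higher with LPS by 0.62 with Ruvbl2 siRNA and by 0.63 with control siRNA. Genes of replication checkpoint and repair had 0 of 21 past 1.5-fold in every pairwise comparison.

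Other genes of nucleotide supply had wider values. Samhd1, which breaks down deoxynucleotides, had levels of 4.39 with Ruvbl2 siRNA and 3.67 with control siRNA in LPS (0.72), and of 4.74 and 4.57 in DMSO. Its LPS difference was -0.34 with Ruvbl2 siRNA and -0.90 with control siRNA. Rrm2b, the p53-inducible small subunit of ribonucleotide reductase, was higher with LPS by 0.55 and 0.87, at levels near -2 where the technical SD is 0.27. In this list of 19 genes, 2 were past 1.5-fold as higher and 0 as lower for LPS with Ruvbl2 siRNA, and 3 and 1 with control siRNA, where all genes had 9.11% and 7.83%, and 11.9% and 8.11%.

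Regulators of the E2F, RB and MuvB group lay below 0 with LPS by their median. The list of 19 had a median of -0.19 with Ruvbl2 siRNA and -0.23 with control siRNA. Scaling on the spike-ins, which adds the same amount to every gene of a comparison, turns the median with Ruvbl2 siRNA above 0 and leaves that with control siRNA below it. With control siRNA 5 of 19 were past 1.5-fold as lower and 0 as higher, where all genes had 8.11% and 11.9%. The 5 are named because they make up that count, after their values were seen: E2f7 (-0.92) and E2f2 (-0.65), an atypical repressor and an activator of the E2F family, the dimer partner Tfdp2 (-0.65), the pocket protein gene Rbl2 (-0.64) and Lin37 of the MuvB complex (-0.65). The same genes stood at -0.55, -0.59, -0.41, -0.56 and -0.53 with Ruvbl2 siRNA. Outside the naming rule, E2f1, an activator, was above 0 at 0.26 with each siRNA, and E2f3, another activator, at 0.94 and 0.58. E2f4, a repressor form, was called lower in DMSO between the siRNAs (-1.17), at levels of -3.55 and -2.38 with a technical SD of 0.27. Over all genes 1.55% were past 2-fold in either direction in that comparison.

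Mitosis genes differed from replication genes in their counts for LPS. Of 25 mitosis genes, 17 were below 0 with Ruvbl2 siRNA (median -0.13) and 20 with control siRNA (median -0.24), where 11 and 19 of the 39 replication genes were. As for the E2F list, the spike-in scaling turns the mitosis median above 0 with Ruvbl2 siRNA and not with control siRNA. Ccnb1, the mitotic cyclin B1, was lower by 0.84 on the log2 scale with control siRNA (-0.37 with Ruvbl2 siRNA), and Kif11, a spindle motor, differed by -0.38 and -0.50. With Ruvbl2 siRNA the mitosis genes past 1.5-fold were both higher, Cenpe (0.89) and Cenpf (0.82), and 0 were lower. Over all genes 9.11% were past 1.5-fold as higher and 7.83% as lower in that comparison. This count is thus not read as a trait of mitosis genes. Between the siRNAs in LPS, 22 of 25 mitosis genes were above 0 with a median of 0.19, led by Ccnb1 (0.66) and Cenpf, a kinetochore protein gene (0.55). Cenpf and Cenpe, a kinetochore motor, were, like Pola1, lowest on the Ruvbl2 siRNA DMSO array, with siRNA differences in DMSO of -0.37 and -0.20. The difference between the lists was not tested, since each group is 1 array.

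Upstream of S phase, and named for their role after their values were seen, the CDK inhibitor Cdkn1a, a p53 target, was higher with LPS by 0.45 with Ruvbl2 siRNA and 0.34 with control siRNA, and by 0.24 in LPS and 0.13 in DMSO between the siRNAs. Ccnd2, cyclin D2, had the widest values of these lists. Its brightest probe stood at -2.28 with Ruvbl2 siRNA and -0.69 with control siRNA in LPS (-1.60), and at -2.93 and -4.54 in DMSO (1.61). The level of -4.54 is near that array's floor of -5.15, and below -4 the technical SD is 0.69. By this probe LPS gave 0.65 with Ruvbl2 siRNA and 3.86 with control siRNA, the latter resting on the same dim level. The 2 other probes of Ccnd2 were well above background on 1 and 2 of the 4 arrays, neither of them on a DMSO array, so no LPS difference is given for them. The probe that passed on both LPS arrays stood at -4.35 with Ruvbl2 siRNA and -2.75 with control siRNA there (-1.61), with a technical SD of 0.69. The G1 and S phase cyclins that act nearer to origin firing were closer to 0. Ccne1, cyclin E1, was higher with LPS by 0.33 and 0.44, and Ccna2, cyclin A2, by 0.19 and 0.16. Asf1a, a histone chaperone gene, was called lower with LPS with control siRNA (-1.08) and stood at -0.32 with Ruvbl2 siRNA, at levels below -2. For LPS with control siRNA, 7.95% of all genes were past 2-fold in either direction.

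**Figure D5:**
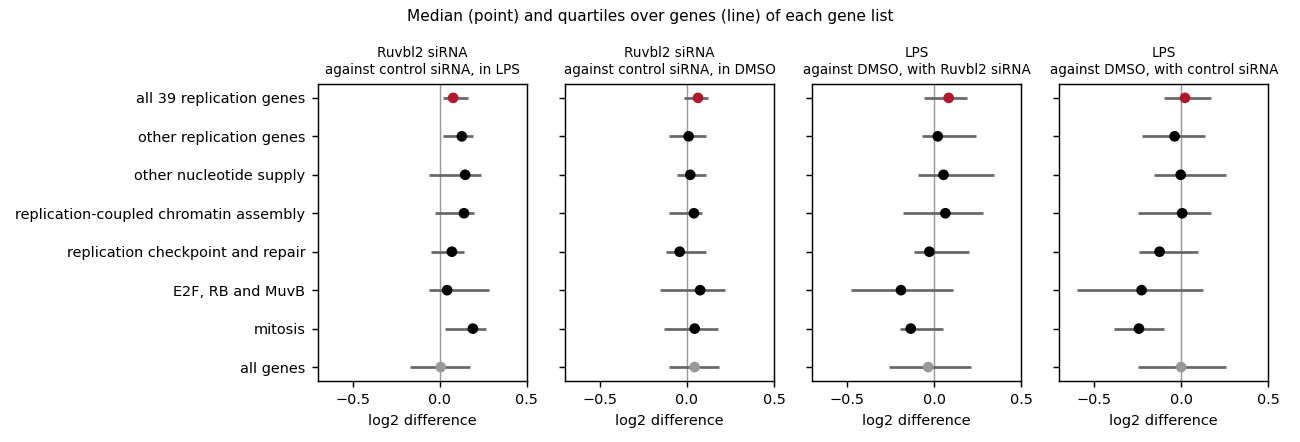
Median (point) and quartiles over genes (line) of the log2 differences of 7 gene lists and of all genes, in the 4 pairwise comparisons, with 1 array per group. The replication genes stay within 0.1 of 0 by their medians, and the mitosis and E2F lists lie below 0 for LPS, which the spike-in scaling turns with Ruvbl2 siRNA.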

How the data were processed

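RNA of 4 samples was hybridised to 4 Agilent mouse arrays of 1 colour, on 1 slide and in 1 scan. The deposited intensity values are processed signals, background-subtracted and detrended by Feature Extraction, per the file headers; the submitters' processing notes name version 11.0, and the headers a later one. The flags for spots well above background are the authors' deposited scanner output. The deposited value table matches these signals at each of the 62976 spots per array, so it adds nothing, and its columns had medians of 18.8 (Ruvbl2 siRNA LPS), 18.0 (control siRNA LPS), 15.8 (Ruvbl2 siRNA DMSO) and 20.8 (control siRNA DMSO).

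From these, signals were taken to log2 and scaled to each array's 75th percentile, over 56605 RNA probes, spots of 1 probe were averaged, and each gene was given its probe with the highest mean level. Accessions on the array named 32994 probes and 22911 genes. With 1 array per group there are no residual degrees of freedom, so differences are given with no test. A gene was compared where at least 1 of the arrays concerned was well above background, with a dim value raised to the array's floor. The array's own positions are of another build than the RefSeq table (GRCm38.p6), so none is printed. The number of arrays limits the precision.

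The members and lists were chosen with earlier results of these data known. The text names members past 2-fold and otherwise the 5 highest and 5 lowest per comparison, any member that completes a role, and up to 3 genes per direction of each other list; genes outside this rule are said to be so where named. Alternatives were quantile, cyclic loess and spike-in scaling, centring on the median, normexp, other probe and background rules, and the value table. Normexp was planned on mean signals and was run on median signals, the columns used here. The scripts were tested on simulated data. Tools were R 4.3.3 with limma 3.58.1, and Python 3.11.15 with numpy 2.4.6, pandas 2.3.3 and matplotlib 3.10.9.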

Additional observations from a re-analysis of the deposited data

Results flagged for a closer look

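In 4 pairs of values, every probe of a replication gene moved one way in one pair of arrays and the other way in the other pair, by more than 1 technical SD. With 1 array per group none of these differences was tested. The share of all genes that pass the same rule was not computed. Pola1 had a siRNA difference of 0.20 in LPS and of -0.47 in DMSO, and an LPS difference of 0.46 with Ruvbl2 siRNA and of -0.22 with control siRNA. Both statements use the same 4 arrays. Cdt1 had an LPS difference of 0.14 with Ruvbl2 siRNA and of -0.090 with control siRNA. Fen1 had one of 0.073 with Ruvbl2 siRNA and of -0.089 with control siRNA. Cdt1 and Fen1 have 1 probe each, with a technical SD of 0.064, so the smaller of these values lie close to it.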

How the results depend on the processing

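No paired analysis was possible because each group has 1 array and no replicate number is shared. Leaving out a replicate was not possible for the same reason. Scaling on the spike-ins moved the medians of the replication genes to -0.24 between the siRNAs in DMSO (2 genes past 1.5-fold), 0.45 for LPS with Ruvbl2 siRNA (7 past 1.5-fold), 0.093 for LPS with control siRNA (1 past 1.5-fold) and 0.31 for the gap between the LPS differences (5 past 1.5-fold). All genes moved with them, to -0.26, 0.33, 0.07 and 0.26, and the share of all genes past 1.5-fold on this scale was not computed. With the second brightest probe, an alternative chosen after seeing the data, the median between the siRNAs in DMSO was -0.0042 with 2 genes past 1.5-fold, LPS with Ruvbl2 siRNA had 1 past 1.5-fold, and the gap had 3 past 1.5-fold and 1 past 2-fold. The cause was not tested. Under the other alternatives the medians and counts stayed within the technical SD or 1.5 times of those reported. The value table and the background rules could not change them, since the signals are identical and every replication gene passed. Single values did move, counted over the 39 genes in each of the pairwise comparisons and in the gap. Spike-in scaling moved the most, 147 past the technical SD, and turned 55 signs. The second brightest probe moved 47 and turned 25. Normexp moved 38 past the technical SD and turned 18 signs, and quantile scaling 24 and 15. The mean of probes moved 27 and turned 16, and cyclic loess 15 and 13. Centring on the median moved 0 and turned 9. The sign of a single gene can thus depend on the processing. Spots near background limit the dimmest probes, with a technical SD of 0.69 below a level of -4.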
